A study of Mus musculus with 2 samples.

Results

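The CRE half-site TGACG was examined in a CREM chromatin immunoprecipitation from adult mouse testis, at probes that hold it on either strand but lack the full 8-base element TGACGTCA. The members were chosen by probe sequence alone, among probes that measure the genome and carry a chromosome position, and the rule uses no measured value. They number 9525 of 473664 such probes, 4687 of 236896 on array 1 and 4838 of 236768 on array 2. The full element stood on 145 and 121 probes.

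Germ cells of 5 adult testes from C57BL/6 males were fixed, and the sheared chromatin was precipitated with an antibody to CREM or with goat IgG as the control. The CREM precipitate carried Cy5 and the IgG precipitate Cy3, and the pair was put on 2 promoter arrays that share no probe. The animals were pooled, each array was hybridised 1 time and the dyes were not swapped, so there is no replicate, no test and no p-value here, and dye and antibody cannot be told apart. The assay reads genomic DNA, so the identity of the cells cannot be checked on expressed marker genes.

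CREM, the cAMP responsive element modulator, is a leucine-zipper factor of the CREB family that binds DNA as a dimer. In somatic cells the family answers cAMP signalling through phosphorylation, whereas in round spermatids an activator form of CREM drives genes of sperm maturation together with a testis coactivator. The palindromic element is made of a pair of half-sites facing each other, and many promoters that answer cAMP carry a half-site alone. The value of a probe is log2 of the processed CREM signal over the processed IgG signal, centred on the median of its array. A value of 1 is a 2-fold excess of CREM, and values at or below -1, a 2-fold excess of IgG, were counted the same way. The share on the IgG side rose with CpG number, as given below, so it is no rate of false calls for the CREM side.

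The half-site probes that the results turn on are printed 5′ to 3′ as spotted, in lower case, with the half-site and its 3 following bases in capitals. Read from the other strand, CGTCA is the same half-site, so a probe with CTACGTCA holds TGACGTAG. A first set shows the word TGACGTAG, which 6 of the named probes with high CREM ratios share.
Pogz: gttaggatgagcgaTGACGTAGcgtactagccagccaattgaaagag
Ift172: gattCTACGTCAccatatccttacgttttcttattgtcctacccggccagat
BC051142: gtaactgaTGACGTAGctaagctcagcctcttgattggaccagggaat
Ddx42: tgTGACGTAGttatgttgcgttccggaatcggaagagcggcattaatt
Brwd1: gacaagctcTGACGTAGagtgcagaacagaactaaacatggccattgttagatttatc
Fos: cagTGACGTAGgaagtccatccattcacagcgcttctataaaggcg

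A second set shows the highest named probe of 7 of the 9 extensions that differ from the full element at a single base, in the order TGACGTAA, TGACGTGA, TGACGTTA, TGACGTCT, TGACGTCC, TGACGACA and TGACGCCA. No probe passed the rule for TGACGTCG.
Pef1: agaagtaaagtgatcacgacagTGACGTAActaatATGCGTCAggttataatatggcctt
H4c1: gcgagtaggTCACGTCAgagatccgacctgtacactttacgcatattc
Zranb3: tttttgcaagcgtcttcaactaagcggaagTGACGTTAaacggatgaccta
Mrrf: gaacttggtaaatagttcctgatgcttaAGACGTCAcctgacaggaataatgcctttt
Ywhaq: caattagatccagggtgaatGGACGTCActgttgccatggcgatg
Rpp14: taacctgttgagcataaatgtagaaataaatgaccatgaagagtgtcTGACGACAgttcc
Letm2: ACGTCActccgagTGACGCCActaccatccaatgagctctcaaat

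Another set shows the lowest named probe of each array, on the IgG side, for contrast.
Ddx55: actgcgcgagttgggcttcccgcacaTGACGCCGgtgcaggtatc
Gspt1: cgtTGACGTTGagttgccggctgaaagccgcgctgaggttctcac

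The longer context of a half-site is shown in 3 promoters, each as the 250 bases before the annotated start in RefSeq (build GRCm38.p6), read in the direction of the gene. In the Spata6 promoter the only half-site begins 131 bases before the start and reads TGACGTAA on the other strand. Pogz has half-sites 103 and 48 bases before its start, and Fos has them 129 and 66 bases before. None of these windows holds the full element.
Spata6 promoter: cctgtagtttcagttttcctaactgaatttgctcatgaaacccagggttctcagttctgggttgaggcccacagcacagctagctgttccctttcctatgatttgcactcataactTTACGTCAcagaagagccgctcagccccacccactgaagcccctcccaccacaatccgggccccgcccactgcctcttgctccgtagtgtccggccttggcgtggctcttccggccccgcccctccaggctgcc
Pogz promoter: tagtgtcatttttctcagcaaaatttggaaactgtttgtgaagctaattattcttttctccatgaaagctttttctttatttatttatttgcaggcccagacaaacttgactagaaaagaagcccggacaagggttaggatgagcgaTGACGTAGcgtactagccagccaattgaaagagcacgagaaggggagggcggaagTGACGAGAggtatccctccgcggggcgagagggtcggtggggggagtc
Fos promoter: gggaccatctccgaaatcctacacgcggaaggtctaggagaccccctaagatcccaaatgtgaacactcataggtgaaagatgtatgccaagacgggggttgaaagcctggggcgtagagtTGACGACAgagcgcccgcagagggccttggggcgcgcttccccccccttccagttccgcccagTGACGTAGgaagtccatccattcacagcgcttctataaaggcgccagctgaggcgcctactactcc

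As a class, half-site probes were barely distinguishable from probes without a half-site once base composition was equal. Members were richer in GC (46.0% and 45.6% on arrays 1 and 2, against 42.1% and 42.0% in probes without a half-site) and held 2.02 and 2.04 CpG dinucleotides, against 0.67 and 0.69. Each member was therefore compared with half-site-free probes of its own stratum, defined by GC in bins of 4 percentage points and by CpG number. The median deviation from the stratum was 0.01 on array 1 (95% interval -0.01 to 0.04) and 0.02 on array 2 (-0.002 to 0.05), both intervals including 0. Probes with the full element deviated by 0.21 (0.09 to 0.42) and 0.17 (-0.10 to 0.39). These intervals, like all those below, cover the sampling of probes only. Nearby probes share chromatin fragments and are not independent, so the intervals are too narrow.

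The upper end of the ratios held slightly more members than its strata did. At or above 1 lay 517 members of array 1 (11.0%, 95% Wilson interval 10.2 to 11.96%), against 9.56% of half-site-free probes weighted to the same strata and 8.88% of all probes. On array 2 there were 558 (11.5%, 10.66 to 12.5%), against 10.66% weighted and 9.62% of all probes. The excess was thus 1.47 (0.60 to 2.40) and 0.88 (0.01 to 1.81) percentage points. With normexp, another background correction, fewer members and fewer matched probes reached 1. The shares were then 3.31% against 2.81% on array 1, an excess of 0.50, and 7.52% against 6.50% on array 2. With 1 member kept per 1000 bp the excess was 0.82 (-0.07 to 1.78) and 0.32 (-0.58 to 1.28), both intervals including 0. On array 2 the interval included 0 under 6 more of the alternatives run. The full element gave 22 probes on each array, 15.2% against 6.96% and 18.2% against 8.10%.

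The IgG side showed no such excess at this threshold. At or below -1 lay 788 members of array 1 (16.8%) against 17.4% weighted, and 726 of array 2 (15.01%) against 16.1%. Over all probes 7.24% and 7.57% lay there. At or beyond 4-fold on the CREM side were 119 members of array 1 (2.54% against 1.73% weighted and 1.3% of all probes) and 130 of array 2 (2.69% against 2.17% and 1.61%). On the IgG side they were 162 (3.46% against 3.53% and 0.983%) and 205 (4.24% against 3.98% and 1.24%).

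The level of half-site probes followed their CpG number closely. Members with a single CpG, the one inside the half-site, had a median of 0.06 on array 1 and 0.07 on array 2. With 3 CpGs the median was -0.33 and -0.21, with 4 it was -1.16 and -0.93, and with 6 or more -1.88 and -1.998. Half-site-free probes had 0.03 with a single CpG on both arrays, -0.62 and -0.51 with 3, and -1.87 and -1.90 with 6 or more. On array 1, 91.7% of members with 6 or more CpGs lay at or below -1, against 3.48% of those with a single CpG.

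**Figure D1:**
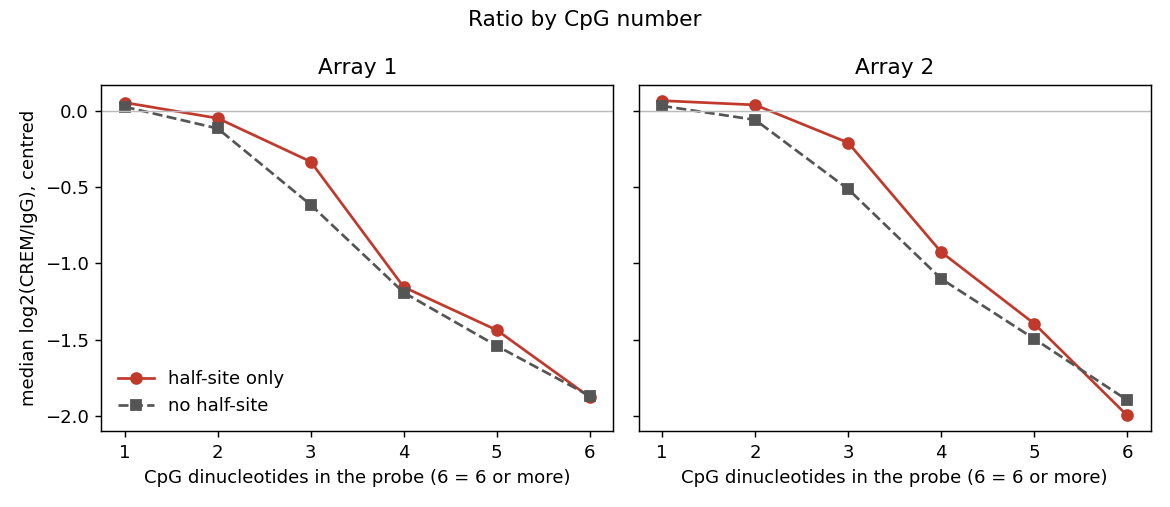
Median centred log2 ratio of CREM over IgG (vertical axis) by the number of CpG dinucleotides in the probe (horizontal axis), for members (red circles) and probes without a half-site (grey squares) on each array. Both lines fall, for members to -1.88 on array 1 and -1.998 on array 2 at 6 or more CpGs.

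GC content showed the same order. On array 1, 17.3% of members with 36 to 40% GC reached 1, against 15.7% of their strata, and 1.18% of those with 60 to 64% GC, against 0.52%. None of the 173 members with 64 to 68% GC and none of the 164 above that did, which leaves upper limits of 2.17% and 2.29%. On array 2 the 2 richest classes, of 163 and 192 members, also had none (upper limits 2.30% and 1.96%). Members between 48 and 60% GC lay above their strata on both arrays, for instance 9.50% against 5.62% at 48 to 52% on array 2.

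The strand of the half-site and its place in the probe separated the members little. Half-sites on the printed strand and on the other deviated by 0.00 and 0.02 on array 1. On array 2 they deviated by -0.01 (-0.04 to 0.03) and 0.05 (0.02 to 0.07), the latter interval lying above 0. Whether the half-site was in the first, middle or last part of the probe, the deviation was at most 0.045. That was the middle part on array 2, with an interval of 0.0009 to 0.0807. Probes with 2 half-sites, 70 and 81 in number, deviated by 0.06 and 0.10, and 7.14% and 12.3% of them reached 1, against 8.52% and 7.80% of their strata. By chromosome, the share at or above 1 was lowest on chromosome 2 (8.95% against 9.32%) and highest on chromosome 3 (15.1% against 10.75%) on array 1. On array 2, leaving out the 3 members on Y, it was lowest on chromosome 12 (9.57% against 11.4%) and highest on X (14.0% against 11.1%).

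The 3 bases that follow the half-site divide the members into 63 extensions, of 43 to 349 probes each over both arrays. Where the first of these bases was T, 14.8% of 1375 probes reached 1 on array 1, against 10.9% of their strata, and 13.8% of 1412 on array 2, against 12.04%. The deviation was 0.08 on both arrays, with intervals of 0.04 to 0.12 and 0.04 to 0.13. With A, C or G in this place the deviations lay between -0.05 and 0.02, and each of the 6 intervals included 0. On 622 probes over both arrays a half-site was too near the probe end for its 3 following bases to be read. These probes deviated by 0.07 (0.01 to 0.12), and a full element that runs past the probe end would not be seen in them.

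The 9 extensions at a single base from the full element deviated by 0.08 on both arrays (0.02 to 0.14 and 0.01 to 0.15), and the other 54 by -0.01 and 0.01. Among probes well above background in both channels the deviation on array 1 was 0.06 (-0.01 to 0.11), and with normexp it was 0.02 on array 1 and 0.05 (-0.01 to 0.10) on array 2. The share of the 9 at or above 1 was 13.0% against 9.88% on array 1 but 11.5% against 11.1% on array 2. The 9 differed among themselves. TGACGTAA deviated by 0.31 (0.08 to 0.42) on array 1 and 0.05 (-0.05 to 0.22) on array 2, and TGACGTGA by 0.10 (-0.0020 to 0.22) and 0.18 (0.06 to 0.30). TGACGCCA lay below 0 on both arrays, at -0.08 and -0.23, and 6 of its 140 probes reached 1 (4.29%, 1.98 to 9.03%, against 6.69%).

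Among single extensions over both arrays, the highest shares relative to their strata belonged to TGACGGAA, TGACGAAA, TGACGTTT, TGACGTAG and TGACGTAA. TGACGGAA reached 1 on 33 of 187 probes (17.6% against 10.5%), TGACGAAA on 36 of 191 (18.8% against 12.8%) and TGACGTTT on 69 of 349 (19.8% against 13.8%). TGACGTAG did so on 33 probes (16.4% against 10.8%) and TGACGTAA on 38 of 224 (17.0% against 11.8%). The full element, at 44 of 266 (16.5% against 7.48%), stood further above its strata, by 9.06 points, than any of the 63. At the other end TGACGCGT had 2 of 43 (4.65%, 1.28 to 15.5%, against 9.93%) and TGACGCGG none of 69 (upper limit 5.27%, against 3.54%). TGACGGTA had 11 of 135 (8.15%, 4.61 to 14.0%, against 11.8%) and TGACGATG 21 of 245 (8.57%, 5.67 to 12.7%, against 11.9%). Each of these intervals included the share of the strata. By median deviation TGACGCGT was not low, at 0.15 (-0.30 to 0.45).

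The order of the extensions repeated only loosely between the arrays. Over the 63 extensions Pearson's r of the 2 median deviations was 0.288 and Spearman's rho 0.322, as a description of points that share the precipitates and dyes. Of the 63, 21 lay above 0 on both arrays, 15 below 0 on both and 27 on opposite sides. The shares at or above 1, relative to strata, had an r of 0.078.

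**Figure D2:**
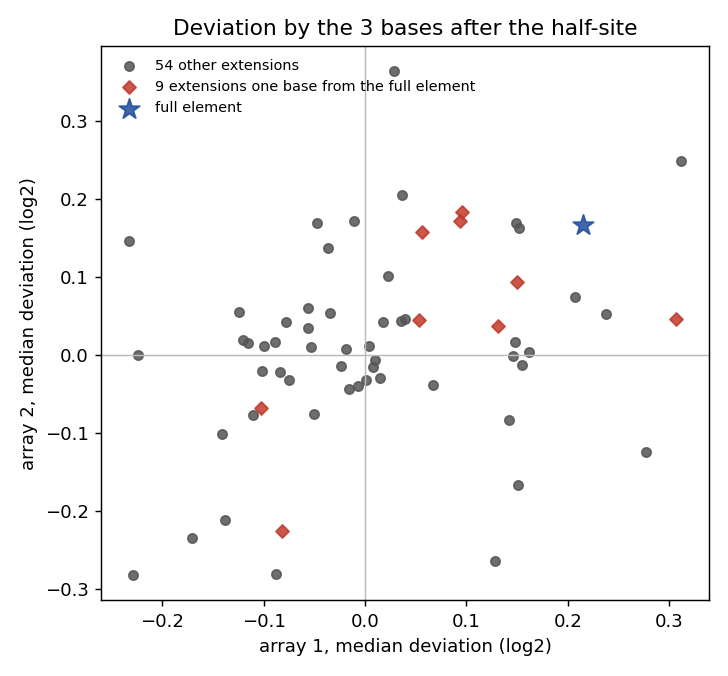
Median log2 deviation from the GC and CpG stratum of probes with each 3-base extension, on array 1 (horizontal axis) and array 2 (vertical axis); red diamonds are the 9 extensions one base from the full element, grey circles the other 54 and the star the full element. Of the 9, 7 lie above 0 on both arrays and 2 below 0 on both.

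The excess on the CREM side was larger at annotated promoters. Probe sequences were placed in RefSeq promoter windows, which run from 250 bases before to 50 after each annotated start. Of 32851 windows, 20.8% hold the half-site on either strand and 1.79% the full element. Members in a window numbered 479 on array 1 and 486 on array 2, and they were compared with half-site-free probes of such windows, in GC bins of 8 percentage points.

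Inside promoter windows 64 of 479 members of array 1 reached 1 (13.4%, 10.6 to 16.7%), against 8.93%, and 80 of 486 of array 2 (16.5%, 13.4 to 20.02%), against 10.3%. Outside them the shares were 10.8% against 9.72% on array 1 and 11.0% against 10.8% on array 2. The difference was therefore 4.43 and 6.14 points inside, and 1.05 and 0.14 outside.

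The base after the half-site also divided the promoter probes. A half-site followed by T, TGACGT, reached 1 on 33 of 160 promoter probes of array 1 (20.6%, 15.1 to 27.5%), against 9.45% of half-site-free promoter probes, and on 31 of 143 of array 2 (21.7%, 15.7 to 29.1%), against 10.9%. With C in this place it did so on 5 of 133 (3.76%, 1.62 to 8.50%) against 6.12%, and on 16 of 144 (11.1%, 6.96 to 17.3%) against 6.84%. With A the shares were 17.1% against 11.7% and 17.4% against 15.8%, and with G 11.0% against 7.58% and 16.2% against 9.57%. TGACGT was the only one of the 4 whose interval lay above the matched share on both arrays. The full element reached 1 on 6 of 45 promoter probes of array 1 (6.26 to 26.2%, against 6.48%). On array 2 it did so on 8 of 40 (10.5 to 34.8%, against 9.84%). Its excess in promoters was thus 6.85 and 10.2 points, against 11.2 and 10.8 for TGACGT. On array 1 its interval included the matched share. With normexp fewer TGACGT probes and fewer matched probes reached 1. TGACGT then had 8.75% against 2.93% on array 1, an excess of 5.82 points in place of 11.2. On array 2 it had 14.7% against 6.13%. The grouping by T was picked after the values were seen.

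On the IgG side the same probes were fewer than their matches. Of TGACGT promoter probes, 29.4% and 26.6% lay at or below -1, against 41.8% and 38.7%. No full element stood within 1000 bp on another probe for 159 of the 160 and for all 143, and without that probe the share on array 1 was 20.8%. Outside promoter windows TGACGT reached 1 on 14.0% of 1210 probes (12.2 to 16.1%), against 11.0%, and on 13.0% of 1263 (11.2 to 14.95%), against 12.2%.

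**Figure D3:**
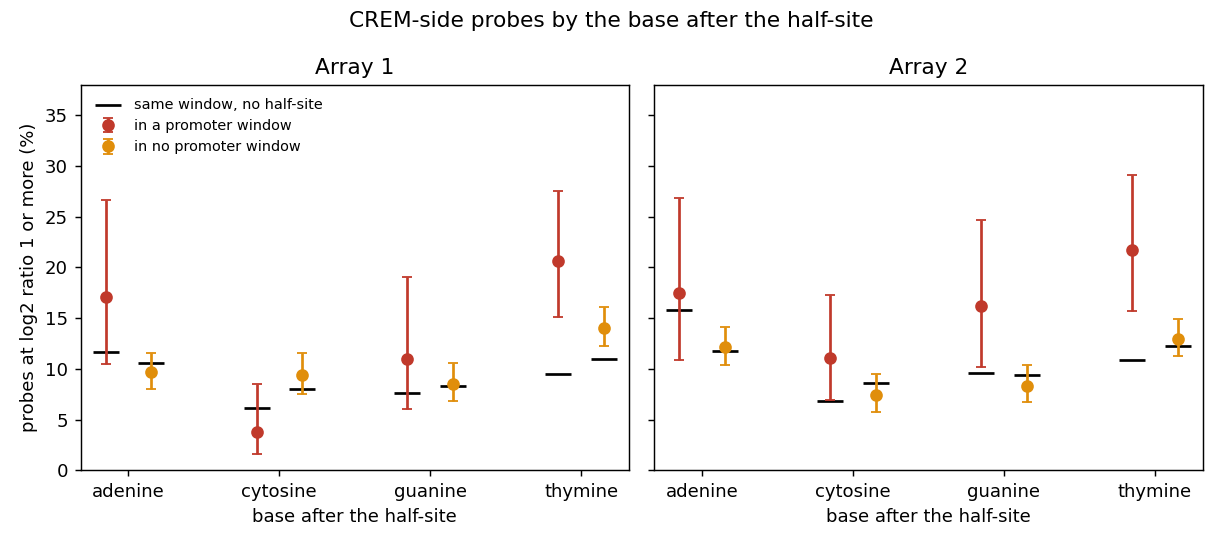
Share of members at a log2 ratio of 1 or more (vertical axis, percent) by the base that follows the half-site (horizontal axis), inside (red) and outside (orange) RefSeq promoter windows, on each array; bars are 95% Wilson intervals and black dashes the share among half-site-free probes of the same kind of place and composition. Thymine in promoters stands at 20.6% and 21.7%, above its dashes at 9.45% and 10.9%.

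The second base after the half-site split the promoter probes further, in small classes. TGACGTT reached 1 on 12 of 39 and 9 of 30 promoter probes (30.8% against 13.7% on array 1, and 16.1% matched on array 2). TGACGTA did so on 11 of 59 and 12 of 34 (18.6% against 9.72%, and 35.3% against 12.3%). TGACGTC had 5 of 35 on each array (14.3% against 6.47% and 7.74%), and TGACGTG 5 of 27 and 5 of 46 (18.5% against 6.32%, and 10.9% against 8.46%). All 8 shares were above the matched ones. The interval lay above the matched share for TGACGTT and TGACGTA on both arrays and for TGACGTG on array 1, and included it in the other 3 cases.

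The shares lay above the matched ones on both sides of a line 100 bases before the start. Of TGACGT probes centred more than 100 bases before the start, 29.4% (18.7 to 43.0%) and 28.0% (17.5 to 41.7%) reached 1, against 16.2% and 17.9%, so on array 2 the interval included the matched share. Nearer to the start the shares were 16.5% (10.71 to 24.6%) and 18.3% (11.7 to 27.3%), against 5.40% and 7.36%. The matched shares show that promoter probes without a half-site were also higher upstream.

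TGACGT was also set among the 6-base words found on at least 60 promoter probes, counted on both strands. Probes with the full element were left out. Among these words TGACGT stood near the top of both arrays. By the share at or above 1 relative to strata it ranked 6 of 1995 word pairs on array 1 and 8 of 1984 on array 2, with excesses of 10.8 and 9.89 points. It was the only pair in the top 10 of both. The top 30 of both arrays had 4 pairs in common. Of these 3 hold the half-site, namely TGACGT itself and the half-site with A or with G before it. The other, GACGTA, overlaps the half-site followed by T and A. With A or G before it the half-site had excesses of 8.62 and 7.91 points on array 1 and 11.4 and 8.34 on array 2, and with C or T before it -2.41 and 0.39, and 1.21 and 1.49. Words overlap and share probes, so these ranks describe the 2 arrays. The correlation between arrays over 1966 shared pairs was 0.21.

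Over the whole arrays the half-site was less prominent. Among all 5-base word pairs it ranked 3 on array 1 and 40 on array 2 by the same measure. The pair CGGAA ranked 4 and 1, with excesses of 1.44 and 2.13 points, and CGAAA was first on array 1 with 1.99.

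Probes beside a half-site, themselves without one, also lay higher. Within 500 bp of a member 12.5% of neighbours reached 1 on array 1, against 10.73% around half-site-free probes of the same strata, and 13.6% against 11.6% on array 2. Outside promoter windows this excess was 0.97 and 0.83 points, in place of 1.80 and 1.97. Around half-sites followed by T the shares were 15.5% (14.5 to 16.5%) against 10.9%, and 15.2% (14.2 to 16.2%) against 11.9%. Around the full element they were 28.5% against 11.1% and 34.4% against 11.8%. The excess around TGACGT held between 500 and 1000 bp, at 16.1% against 11.0% and 15.1% against 11.7%, and was smaller between 1000 and 1500 bp, at 13.4% against 10.4% and 12.9% against 11.2%.

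**Figure D4:**
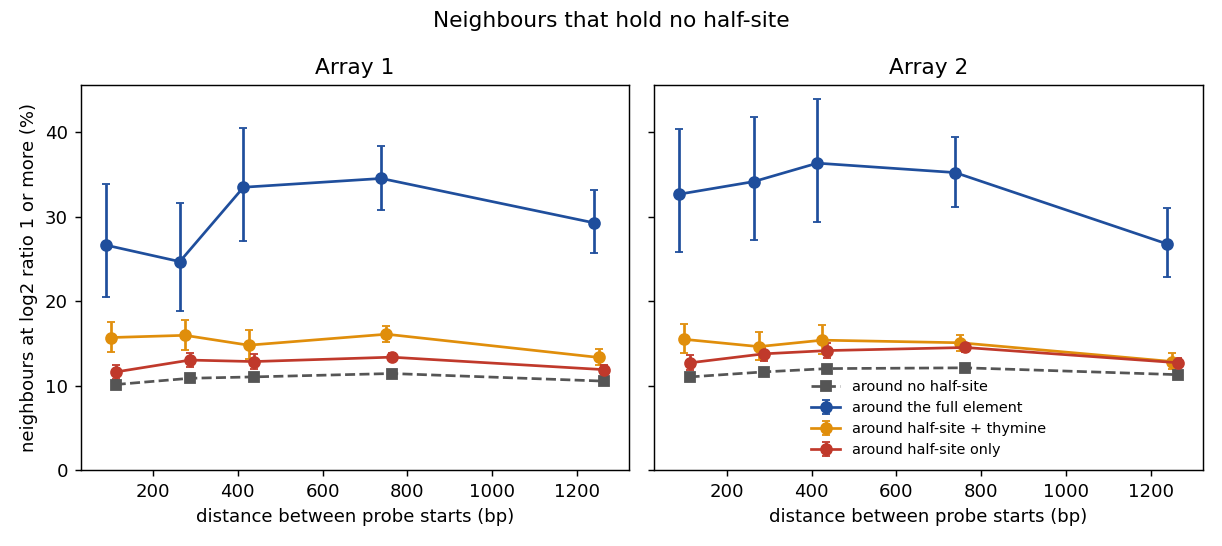
Share of half-site-free neighbours at a log2 ratio of 1 or more (vertical axis, percent) by distance between probe starts (horizontal axis, base pairs), around the full element (blue), half-sites followed by thymine (orange), all members (red) and half-site-free probes of the members' strata (grey); bars are 95% Wilson intervals. Around the full element the share lies between 24.7% and 36.4%, around all members between 11.6% and 14.5%.

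In promoter windows the contrast between the bases was seen in the neighbours too. Neighbours of TGACGT reached 1 in 31.3% (27.8 to 35.1%) and 30.4% (26.8 to 34.4%), against 16.1% and 16.5%. Around half-sites followed by A, C or G the shares lay between 18.2% and 25.3%, against 15.02% to 16.1%. Here too the interval lay above the matched share for C on both arrays and for A and G on array 2. The highest, C on array 2 (22.0 to 29.0%), overlapped the interval of TGACGT. Around the full element in promoters they were 34.8% and 44.9%. The neighbour shares come from other spots than those that define the members.

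A neighbour at or above 1 within 500 bp stood beside 358 of 511 called members of array 1 (70.1%) and 397 of 555 of array 2 (71.5%), counting members that have a neighbour in reach. Called half-site-free probes of the same strata had one in 62.6% and 65.5%. For the 9 extensions closest to the full element it was 78 probes (77.2% against 63.3%) and 72 (81.8% against 67.2%). Set against the half-site-free probes within 500 bp, the median member stood at -0.06 on both arrays, and the full element at -0.23 and -0.34. Of all members, 44 and 29 had a full element on another probe within 1000 bp, and 11 and 12 of these reached 1, against 7.59% and 11.2% of their strata.

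Half-site probes with a supporting neighbour stood at named genes on both arrays. The rule asked for signal well above background in both channels and for a neighbour within 500 bp that met the same conditions at 1 or more. It was met by 176 members in 161 genes of array 1 and 229 in 214 genes of array 2, of 3457 and 3555 genes with a member. These were 3.76% and 4.73% of the members, against 3.17% and 3.78% of half-site-free probes weighted to the same strata and 2.2% and 2.6% of all probes. Gene names are those of the array, updated through RefSeq, positions are of build mm9, and exons and introns were not assigned.

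On array 1 the highest was Pef1, a gene for a calcium-binding protein, at 3.88 (chr4:129784494-129784553), with signals of 9912 for CREM and 668 for IgG. Its probe has TGACGTAA and TGACGCAT, and both neighbours within 500 bp were high, at 4.35 and 3.36. The one at 3.36 was not well above background in both channels. Pogz, which encodes a zinc-finger chromatin protein, followed at 3.54 (chr3:94641242-94641288; 11042 against 943), centred at -94 relative to the RefSeq start. There the ratio changed over a short distance, from 2.57 on the neighbour at lower coordinates to -2.59 within 500 bp on the other side. Rnf20, a ubiquitin ligase for histone H2B, had 3.43 (chr4:49644644-49644703) at a TGACGGAA, between neighbours at 3.37 and 0.55.

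Spata6, needed to build the sperm neck, had 2.88 (chr4:111392445-111392498; 12501 against 1685), between neighbours at 2.34 and -2.09. Ift172, a subunit of the transport machinery of cilia and flagella, had 2.71 (chr5:31593673-31593724), centred at -211.5 relative to its start, with all 4 neighbours between 1.38 and 3.53. A second probe of the Ift172 promoter, with TGACGTAT and centred at -12, had 2.52. Zranb3, a DNA translocase of replication repair, had 2.86 at a TGACGTTA centred 3 bases after its start, with 3 neighbours between 1.51 and 2.56. Of these neighbours 1 was well above background in both channels.

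The remaining 4 of the 10 on array 1 were Trmo, a tRNA methyltransferase (3.33), Mrrf, which recycles mitochondrial ribosomes (3.20), Gpr3, a receptor that raises cAMP (2.85), and Fn1, fibronectin (2.83). With normexp background correction Gpr3 fell to 1.10 and Trmo to 2.06, while Mrrf had 3.16 and Fn1 2.35. Of the 4, Gpr3 had the dimmest IgG signal, at 393, and Trmo followed at 565, against 1408 for Mrrf and 1309 for Fn1.

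On array 2 the highest was H4c1, a histone H4 gene, at 4.35 (chr13:23853545-23853592; 9516 against 465). The probe has TGACGTGA, and its 3 neighbours lay between 3.24 and 3.67. Only the one at 3.24 was well above background in both channels. With normexp H4c1 had 3.44. BC051142 had 3.58 (chr17:34535701-34535748), centred at -40.5, and Ddx42, an RNA helicase, 3.39 (chr11:106078135-106078182), centred at -81.5, both at TGACGTAG. At BC051142 the neighbours on either side had 3.65 and 0.15. At Ddx42 the 5 neighbours ran from -2.08 to 3.12.

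The other high probes of array 2 were Pcnp (3.40, at a TGACGTTT), Sil1, an exchange factor for the chaperone BiP (3.38), Zc3h10 (3.32, at a TGACGCTG), Brwd1, a bromodomain protein needed for spermatid development (3.29, at a TGACGTAG), and Reep6, a protein that shapes the endoplasmic reticulum (3.07). Rpl4, a ribosomal protein gene (3.28), and Zwilch, a kinetochore gene (3.19), lie next to each other on chromosome 9, and all their neighbours within 500 bp were between 1.27 and 3.28. At Reep6 the 4 neighbours ran from -1.92 to 3.43, with 1 at or above 1. The IgG signals of Rpl4 and Reep6 were dim, at 334 and 414. With normexp these probes fell to 2.15 and 1.94, while Pcnp, with an IgG signal of 745, had 2.87.

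**Figure D5:**
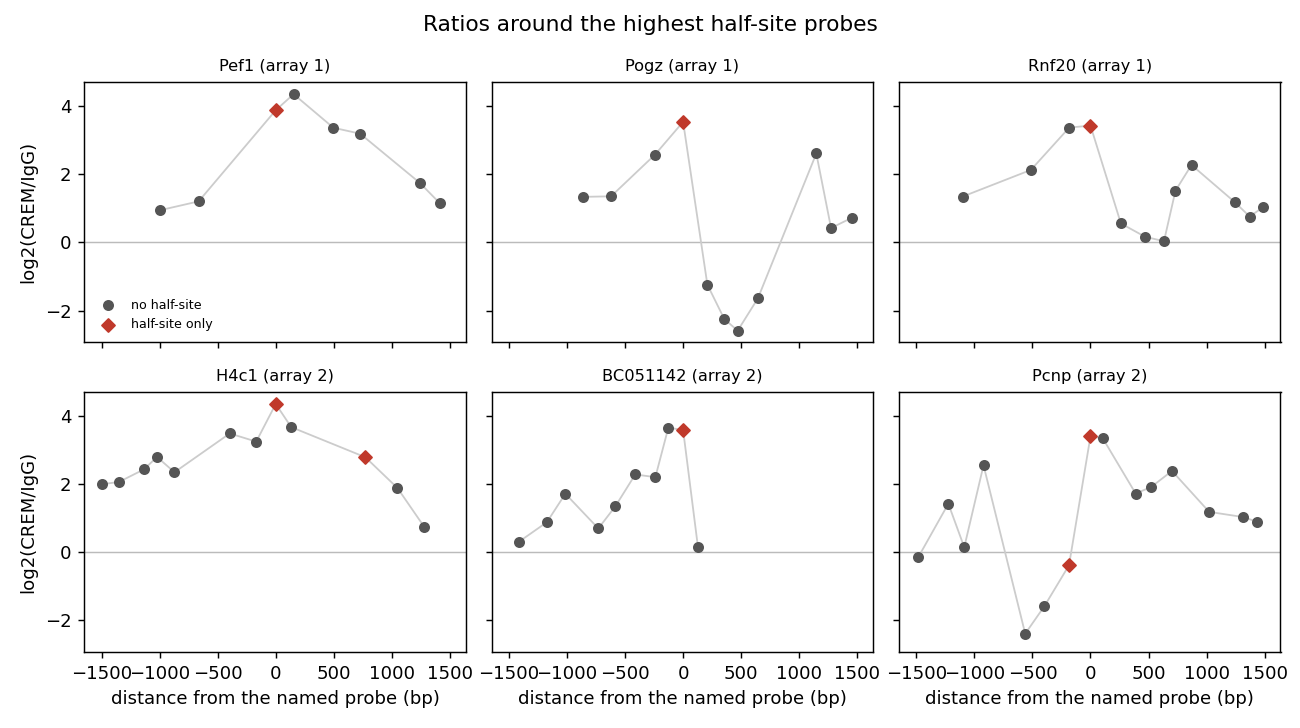
Centred log2 ratio of every used probe within 1500 bp of the 3 highest named probes of each array (vertical axis) against its distance from the named probe along the chromosome (horizontal axis, base pairs); red diamonds hold the half-site and grey circles do not. Pef1 and H4c1 are broad, with neighbours at 4.35 and 3.24 that were well above background in both channels. Pogz drops from 3.54 to -1.24 at the next probe.

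Promoter probes with TGACGTAG, a word singled out after the values were seen, lay on both sides of 0. On array 1, 4 of the 14 reached 1 (28.6%, 11.7 to 54.6%, against 15.6% of half-site-free promoter probes) and 2 lay at or below -1. On array 2, 6 of the 18 reached 1 (33.3%, 16.3 to 56.3%, against 9.34%) and 5 lay at or below -1. The medians were 0.41 and 0.13. Over both arrays, 41 promoter probes with TGACGT, well above background in both channels, reached 1. These were 19 of 133 such probes, in 17 genes, on array 1 and 22 of 118, in 22 genes, on array 2. In a run limited to probes this bright, the excess of TGACGT in promoters was 7.55 and 10.3 points. A neighbour at or above 1 within 500 bp stood beside 19 and 19 of the 41. Over the whole arrays, 75.2% and 72.7% of called half-sites followed by T had such a neighbour, against 63.01% and 65.95% of matched probes. No matched share was computed for called promoter probes, so the support of the 41 cannot be compared there. A neighbour at or below -1 stood beside 8 and 7 of the 41. Of these 41, besides Pogz, Ift172, BC051142 and Ddx42, those with TGACGTAG were Fos at 2.43, the scaffold protein gene Pdzk1 at 1.51, the nucleoporin gene Ranbp2 at 1.96, and Rad51c at 1.85 and Mdc1 at 1.82, a pair of DNA repair genes. At Ranbp2 neighbours ran from -2.83 to 3.06. Others were Aimp2, of the tRNA synthetase complex, at 2.22 (TGACGTTA), the splicing factor gene Sf1 at 2.31 (TGACGTGA), the selenoprotein gene Selenok at 2.42 (TGACGTCT) and Mt1, metallothionein, at 1.13 (TGACGTGT).

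Other extensions at a single base from the full element were represented by Ywhaq, a 14-3-3 protein gene, at 2.43 (TGACGTCC, in the RefSeq window of Gm4419), by Rpp14, a ribonuclease P subunit, at 2.80 (TGACGACA) and by Letm2 at 2.12 (TGACGCCA). The Letm2 probe holds 2 half-sites, the other followed by T and cut by the probe end. Its value therefore cannot be assigned to TGACGCCA alone. Letm2 fell to 0.41 with normexp, on an IgG signal of 379.

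Half-sites were also found far on the IgG side. On array 1 the lowest were Ddx55, a helicase, at -3.76 (chr5:125003009-125003053; 64.4% GC), Wee1, a kinase that holds back mitosis, at -3.45 and Smad1, a transducer of bone morphogenetic protein signals, at -3.30. On array 2 they were Gspt1, a translation termination factor, at -3.85 (chr16:11253874-11253918; 60.0% GC), Bmp4, a ligand of that pathway, at -3.71 and Slc9a3r2, a scaffold protein, at -3.56. The Gspt1 probe holds TGACGTTG and is centred at -167 in the RefSeq window of LOC115488671. It is thus itself a promoter probe with TGACGT. Of the 6, 5 had no neighbour at or above 1, and Ddx55 had 1. Under the mirrored rule 479 members in 440 genes of array 1 and 368 in 349 of array 2 lay on this side. These were 10.2% and 7.61% of the members, against 10.75% and 9.59% weighted and 3.48% and 3.28% of all probes.

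Gene lists were read through their half-site probes only, over both arrays. The lists were chosen with earlier results of these data known, so their shares and intervals are descriptions only. Of 14 members at 11 genes from a list of CREM-dependent spermatid genes, 4 reached 1 (28.6%, 11.7 to 54.6%), with a median of 0.60. Gsg1, a germ cell gene, had 2.58 with an IgG signal of only 73.9, the spermatid linker histone gene H1f7 1.65, the testis pyruvate dehydrogenase gene Pdha2 1.42 and the transition protein gene Tnp1 1.20. Ldhc, the lactate dehydrogenase of sperm, had -2.57 at a probe with 2 half-sites, TGACGTTG and TGACGTTC, near its start.

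Genes that answer cAMP had 40 members at 19 genes, of which 4 reached 1 (10.0%, 3.96 to 23.1%) and 8 lay at or below -1, with a median of -0.04. The immediate early gene Fos had 2.43 at TGACGTAG (chr12:86814771-86814816; 5042 against 932), centred at -46.5, and 1.17 at a second half-site further off. Its other half-site probes had 0.76 at TGACGCAG, not well above background in both channels, and -0.13 at TGACGTAT. Fosb had 2.04 at TGACGTAA, not well above background in both channels, and -1.07 at TGACGCGC. The nuclear receptor gene Nr4a1 had 1.45 and, in its promoter window, -1.64. At a TGACGTAG, Rgs2, a brake on G-protein signalling, had -1.85 and Pck1, an enzyme of glucose synthesis, 0.37.

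Cholesterol synthesis genes had 18 members at 12 genes, 6 of them at 1 or more (33.3%, 16.3 to 56.3%) and none at or below -1, with a median of 0.56. The 6 were Idi1, an isomerase (2.60), Pmvk, phosphomevalonate kinase (2.57 and 1.04), Sc5d, a desaturase (1.58, with an IgG signal of 59.6), Fdft1, squalene synthase (1.36), and Mvk, mevalonate kinase (1.32). Endoplasmic reticulum stress genes had 12 members at 9 genes, 4 of them at 1 or more (33.3%, 13.8 to 60.9%), with a median of 0.27. These were Herpud1 at 1.83, also not well above background in both channels, Hspa5, the chaperone BiP, at 1.57 and Hyou1 at 1.18 and 1.17, while Xbp1 had -2.91 and the chaperone gene Canx -2.32.

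The CREB family and its coactivators had 1 of 10 members at 1 or more, Creb3l4, a testis-expressed relative, at 1.08, with Atf1 at -2.23 and the coactivator gene Crebbp at -2.74. Genes of Sertoli and Leydig cells, other cells of the testis, had none of 10 at 1 or more, which leaves an upper limit of 27.8%, and none at or below -1, with a median of -0.28. Over all members 11.0% and 11.5% reached 1, with medians of -0.09 and -0.05. Probes of any sequence at the same genes differed between the lists too. Of these, 20.6% reached 1 in the spermatid list, 15.9% in the cAMP list, 20.3% in the stress list, 17.2% in the cholesterol list, 10.3% in the CREB list and 5.48% in the Sertoli and Leydig list. Set against their GC and CpG strata, the median deviations of the half-site probes were 0.44 in the spermatid list, 0.18 in the cAMP list, 0.45 in the stress list, 0.52 in the cholesterol list, -0.19 in the CREB list and -0.05 in the Sertoli and Leydig list. The lists rest on 10 to 40 half-site probes each.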

How the data were processed

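The members and gene lists were chosen with earlier results of these data known. Per the file headers, Feature Extraction 10.7.1.1 read both arrays and probe positions are those of mm9. The deposited processed signals are intensity values from which background had been taken, with a linear scaling of the dyes, per the file headers, and the deposited LogRatio column is log10 of red over green. The deposited flags mark saturated, outlying and well-above-background spots, per the file headers. The authors' deposited log2 ratios equal a within-array loess of background-subtracted signals when matched by row order (r = 1). Their array medians are -0.000965 and -0.00103. R 2.10.1 and limma are the tools listed in the submitters' processing notes.

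Values were log2 of processed Cy5 over Cy3, centred on the median, with no loess and no filter on brightness. Spots with an outlier flag, 46 and 9, none of them a member, were left out. Of members, 80.9% and 81.0% were well above background in both channels. Strata needed at least 20 half-site-free probes. Probes were placed by exact sequence in RefSeq promoter windows (GRCm38.p6), where 19507 of 473664 matched. Of 18247 gene names 13983 were current, 2630 were updated through a synonym and 1634 were kept. Named probes were, per array, the 10 highest members under the rule above and the 3 lowest by its mirror, the highest for each of the 9 nearest extensions and up to 3 per list; members of lists with other values were named after these were seen. The named probe of 1 of the 9 extensions is not reported here. Alternatives were dim-probe filters, normexp (offset 50), loess, the authors' values, other strata, member sets and thresholds. Python 3.11.15, pandas 2.3.3, scipy 1.17.1, R 4.3.3 and limma 3.58.1 were used, and the statistics were tested on simulated data.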

Additional observations from a re-analysis of the deposited data

How the results depend on the processing

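All values here are differences in percentage points from matched probes without a half-site, unless said otherwise. The median deviation of members stayed inside its interval on both arrays under every alternative run. On array 2 the interval then lay above 0 with both channels above background (0.03, 0.0069 to 0.0529) and with loess (0.03, 0.0068 to 0.0476). Their excess at or above 1 on array 1 moved to 0.50 with normexp and to 0.82 with 1 member per 1000 bp, and on array 2 it was between 0.22, outside promoter windows with values centred anew, and 1.51, beyond 1.5-fold. The interval of this excess included 0 on both arrays with 1 member per 1000 bp. On array 2 it did so too with loess, with brightness added, with exactly 1 half-site, with the half-site and following bases whole, with no full element within 1000 bp and outside promoter windows. At or below -1, the difference on array 2 turned to 0.14 with normexp and to 0.26 beyond 4-fold, and on array 1 it moved to -1.94 beyond 1.5-fold and was 0.21 with normexp. The excess among neighbours within 500 bp moved from 1.80 and 1.97 to 0.97 and 0.83 outside promoter windows. The 9 extensions nearest to the full element had deviations (log2) down to 0.02 on array 1 and 0.05 on array 2 with normexp, from 0.08. The interval included 0 on array 2 with normexp, and on array 1 with both channels above background. TGACGT in promoters kept an excess of 5.82 to 12.4 on array 1 and 8.56 to 11.2 on array 2, over 9 alternatives chosen after seeing the data, lowest with normexp on both. Fewer TGACGT probes and fewer matched probes reached 1 with normexp, 8.75% against 2.93% on array 1 and 14.7% against 6.13% on array 2. The cause of these changes was not tested. No paired analysis was possible because each array was hybridised 1 time. With 1 hybridisation an array, the spread between precipitations is unknown. Dim IgG signals limit single ratios on both arrays, as at Gpr3, Letm2, Rpl4 and Reep6.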
